A study of Mus musculus with 12 samples.

Results

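Axonemal dyneins are the motors that make cilia and sperm tails beat. The genes described here are 38 of the 26264 genes in the count files of this series: the axonemal dynein heavy chains (symbols beginning with Dnah), the intermediate, light-intermediate and light chains (Dnaic1, Dnaic2, Dnal1, Dnal4 and Dnali1), the docking proteins of the outer arm (Ccdc114, Ccdc151, Armc4 and Ttc25), the dynein assembly factors (symbols beginning with Dnaaf, with Zmynd10, Lrrc6, Ccdc103 and Spag1) and 3 subunits of the nexin-dynein regulatory complex (Drc1, Drc3 and Drc7). The rule that picks them uses symbols only, and it was set with earlier results of these data known. Pih1d3, also named in that choice, is listed under its newer symbols Dnaaf6 and Dnaaf6b.

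The RNA came from organoids, hollow balls of epithelium grown from the lining of the mouse uterus in a basement membrane gel (Cultrex) and collected at passage 3. Organoids of 2 genotypes, wild type (WT) and Esr1 KO (Esr1 being the gene of estrogen receptor alpha), were each kept with no estrogen or given estrogen, and each of these 4 groups has 3 libraries, 12 in all. The labels speak of uteri of several postnatal ages without tying an age to a library, and the Esr1 allele, any Cre driver, the number of animals and the dose and duration of estrogen are not given in the sources used here. Replicates are therefore 3 libraries of one label, and the p-values below measure the spread between these libraries.

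In a motile cilium, outer and inner dynein arms sit in rows along the microtubules of the axoneme, and their heavy chains convert ATP into sliding. Arms are put together in the cytoplasm by assembly factors working with chaperones, are carried into the cilium, and are anchored by docking proteins, while the nexin-dynein regulatory complex links neighbouring microtubules and governs the inner arms. In the female tract these proteins are best known from the multiciliated cells of the oviduct, and loss of many of them causes primary ciliary dyskinesia.

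The promoters of several members carry a short word bound by RFX factors, the transcription factors of ciliary genes, and stretches that hold it are shown here. Whether the word has a part in the changes described below was not tested. RefSeq promoters (GRCm38.p6, from 250 bases before to 50 bases after the start) matched 32 of the 38 members. The RFX word GTTGCC, searched on both strands, occurred in 13 of these 32 (40.6%), against 12.5% of all 32851 promoters. A shortened form of the word facing its own reverse complement across 3 bases, searched as GTTGCNNNGCAAC after the promoters had been read, occurred in 6 of 32 (18.8%), against 0.225% of all promoters. Those 6 belong to Dnah6, Dnah7a, Dnah7b, Dnah7c, Dnaic2 and Ccdc103, and Dnah7a, Dnah7b and Dnah7c are near copies of each other, so their matches are not separate. The 13 promoters with GTTGCC also include these copies. They include Dnaaf6 and Dnaaf6b as well, whose promoters share the bases next to the word, so these matches are not separate either. A promoter with the facing pair also held GTTGCC somewhere in 5 of the 6 cases. From 60 bases before to 50 bases after the start, GTTGCC lay in 10 of 32 members (31.2%), against 5.18% of all promoters. This window was also set after the promoters had been read, and the 10 include both Dnaaf6 and Dnaaf6b. The bases from position -80 to position -1 are printed 5′ to 3′ on the gene's strand, with the RFX words and facing pairs in capitals, for Dnah6 (chr6:73221632-73221711 on the minus strand), Dnah7a (chr1:53706785-53706864 on the minus strand), Dnaic2 (chr11:114727339-114727418 on the plus strand), Dnah10 (chr5:124725005-124725084 on the plus strand) and Drc1 (chr5:30281313-30281392 on the plus strand), and for Dnah5 (chr15:28203686-28203765 on the plus strand), the most abundant heavy chain, which held neither form.
Dnah6: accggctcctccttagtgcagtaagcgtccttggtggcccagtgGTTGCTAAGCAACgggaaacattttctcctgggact
Dnah7a: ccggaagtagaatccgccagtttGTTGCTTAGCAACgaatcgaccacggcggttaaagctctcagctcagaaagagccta
Dnaic2: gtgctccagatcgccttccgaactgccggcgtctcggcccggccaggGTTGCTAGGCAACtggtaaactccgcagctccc
Dnah10: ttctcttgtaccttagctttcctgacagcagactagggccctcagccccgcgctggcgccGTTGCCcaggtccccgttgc
Drc1: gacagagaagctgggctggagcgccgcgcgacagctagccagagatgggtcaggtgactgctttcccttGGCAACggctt
Dnah5: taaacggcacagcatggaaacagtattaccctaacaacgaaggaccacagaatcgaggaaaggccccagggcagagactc
The forkhead word TGTTTAC, searched on both strands, was present in 1 of 32 member promoters (3.12%, Dnah17) against 3.65% of all, and the estrogen receptor word AGGTCA in 0 of 32 against 16.3%. A match is a description of letters in this window and not a binding site, and an absent match says only that these letters are not in it.

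The libraries held 75654191 to 108665407 counted reads. Esr1 itself was checked before the members: it fell from 308 ± 50.2 to 16.4 ± 0.402 CPM without estrogen (mean ± SD, n = 3; CPM is the read count scaled to a common library size, here after TMM normalisation) and from 318 ± 33.5 to 19.7 ± 0.5098 CPM with estrogen. The log2 fold changes were -4.23 ± 0.128 and -4.01 ± 0.126 (± SE; edgeR quasi-likelihood test, adjusted p = 1.34e-09 and 2.25e-09). Library pairs within a group all differed beyond counting noise, so each library was counted as a separate sample. Genotype moved a large part of the transcriptome: of 16465 genes tested, 37.7% were called higher and 34% lower in KO without estrogen, and 36.7% and 34.1% with estrogen. With scaling by library size alone, 65.5% of the calls without estrogen and 63.1% of those with it were higher in KO, against 52.5% and 51.9% with TMM. The shares of genes called are the background against which the counts of members have to be read.

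Nearly the whole axonemal dynein set was more abundant in KO organoids. Of the 37 members that passed the count filter, 35 rose without estrogen and 36 with estrogen (adjusted p under 0.05), and Dnah17, a heavy chain of sperm outer arms, was the member that fell in both. The 35 that rose without estrogen rose with it as well, against 34.1% of all genes called higher in both comparisons and 30.8% called lower in both. The median log2 fold change of the 37 members was 6.62 without and 5.91 with estrogen, against 0.04 and 0.02 over all genes tested. Setting members with 0 WT reads at their lower bound left both member medians at these values. Of the 37, 13 entered the test through their KO counts, as set out below, which favours high values. The member medians are therefore given as a description. In the plot of all members by library, the 6 KO libraries lay above the 6 WT libraries for 35 members and below them for Dnah17. They overlapped for the remaining 2, Dnah14 and the untested Dnaaf6, which had 2 reads in all. The share of all genes set apart in this way was not counted, and the 35 include the 13 members that entered the test through their KO counts. These counts of members set apart are therefore a description, from which nothing is read. In RNA from whole organoids, more cells of a type and more RNA per cell cannot be told apart.

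**Figure D1:**
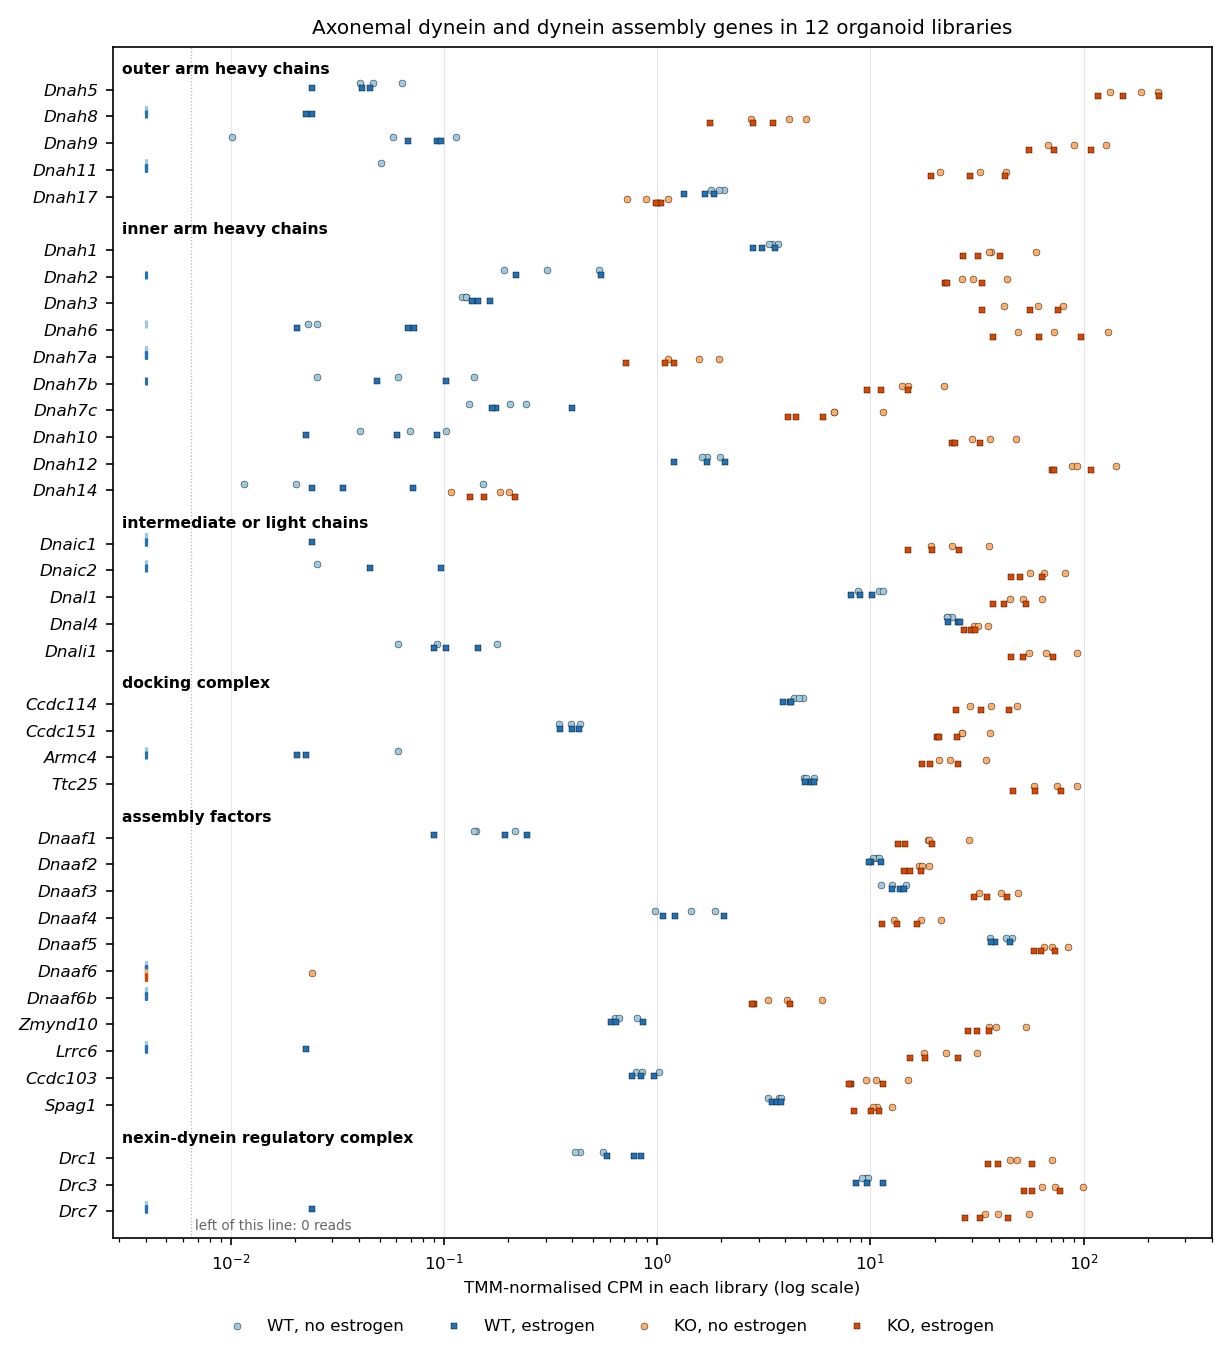
TMM-normalised CPM (log axis) of the 38 members in each of the 12 libraries, grouped by role, with circles for no estrogen and squares for estrogen, blue for WT and orange for KO. Libraries with 0 reads are drawn as ticks left of the dotted line. The KO points lie to the right of every WT point for 35 members, and to the left for Dnah17. The share of all genes set apart in this way was not counted. For Dnah14, 1 WT library (replicate 1 without estrogen) overlaps the KO points.

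The filter itself has to be kept in view. Among members that met the count minimum in at least 3 WT libraries, which did not need KO reads to be tested, 20 of 21 rose in both comparisons and 1 fell, against 27.9% of such genes called higher. Another 13 members were under that minimum in every WT library and entered the test through their KO counts. All 13 rose, as did 89.6% of all genes of that kind, so nothing is read from this second count. The other 3 members (Dnah7b, Dnah14 and Dnali1) lay in between, and 2 of them rose in both.

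Of the 5 outer arm heavy chains, 4 rose in both comparisons and Dnah17 fell. The 4 that rose (Dnah5, Dnah8, Dnah9 and Dnah11) were all under the count minimum in every WT library, where 89.6% of genes are called higher, so their levels are given as a description. Dnah5, the heavy chain of the outer arm most often mutated in primary ciliary dyskinesia, was the most abundant of them. It stood at 0.0637, 0.0404 and 0.0463 CPM in the 3 WT libraries without estrogen and at 0.0411, 0.0242 and 0.0451 CPM in those with it, close to the level of a few reads. In KO it reached 133, 224 and 185 CPM without and 117, 224 and 152 CPM with estrogen, so that the groups were far apart in every library. On the log2 scale Dnah5 was higher in KO by 11.80 ± 0.409 and 12.06 ± 0.419 (edgeR), given without a p-value because Dnah5 entered the test through its KO counts. Dnah9, its partner along the distal part of the cilium, went from 0.0609 ± 0.0523 to 95.4 ± 30.01 CPM without estrogen (n = 3 in each group) and from 0.0857 ± 0.0158 to 78.8 ± 26.96 CPM with it. Dnah11, the partner near the ciliary base, had 4 reads over the 3 WT libraries without estrogen and 0 with it, against 32.3 ± 10.9 and 30.5 ± 11.8 CPM in KO. With the floor of 3 reads over a group, Dnah11 was at least 2716-fold higher in KO with estrogen.

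The outer arm chains known from sperm tails, Dnah8 and Dnah17, were at low levels in all groups. Dnah8, the counterpart of Dnah5 in sperm, rose from 0 WT reads without estrogen to 4.16, 4.97 and 2.76 CPM in KO, at least 348-fold. With estrogen it went from 4 WT reads to 3.48, 2.81 and 1.77 CPM, 172-fold on the ratio of mean CPM. The KO level of Dnah8 was a small part of that of Dnah5, 0.0109 to 0.0294 of it per kb of transcript over the 6 KO libraries. Dnah17, a partner of Dnah8, stood at 2.06, 1.79 and 1.96 CPM in WT without estrogen and at 1.68, 1.84 and 1.34 CPM in WT with it. In KO it stood at 1.13, 0.891 and 0.721 CPM without and 1.01, 1.05 and 0.987 CPM with estrogen, below all WT libraries. Dnah17 was 2.12-fold lower in KO without estrogen (log2 fold change -1.08 ± 0.211, edgeR adjusted p = 0.00075) and 1.59-fold lower with it (-0.67 ± 0.209, adjusted p = 0.0134). The second call was lost when WT replicate 2 with estrogen was left out (log2 fold change -0.57, edgeR adjusted p = 0.051) or libraries were scaled by size alone (-0.48, adjusted p = 0.0641).

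All 10 inner arm heavy chains had higher mean levels in KO, and 9 rose in both comparisons. These 9 were 5 of the 5 that met the count minimum in WT (Dnah1, Dnah2, Dnah3, Dnah7c and Dnah12), 3 of the 3 that were under it in every WT library (Dnah6, Dnah7a and Dnah10), and 1 of the 2 in between. Of all genes, 27.9% of the first kind and 89.6% of the second rose in both, so nothing is read from the calls of Dnah6, Dnah7a and Dnah10. The 10 inner arm chains had median log2 fold changes of 7.21 and 7.23. With Dnah7a, which had 0 reads in all 6 WT libraries, at its lower bound, the medians were 6.86 and 6.57. These medians include the 3 chains under the count minimum in every WT library and are given as a description. Dnah12, a heavy chain of a monomeric inner arm, was the most abundant in counts. It stood at 1.72, 1.63 and 1.98 CPM in WT without estrogen and 2.09, 1.72 and 1.19 CPM in WT with it, and at 88.2, 142 and 92.96 CPM and 70.98, 109 and 72.9 CPM in KO without and with estrogen. On the log2 scale it rose by 5.92 ± 0.289 and 5.65 ± 0.286 (edgeR, adjusted p = 2.39e-08 and 3.57e-08), with no overlap between genotypes. Dnah1 was the inner arm chain with the highest WT level, at 3.498 ± 0.187 CPM without and 3.16 ± 0.39 CPM with estrogen, and it rose 12.6-fold and 10.5-fold on the ratio of mean CPM. Dnah2 and Dnah10, the heavy chains that pair in the inner arm known as f or I1, rose to 33.7 ± 8.82 and 38.2 ± 9.24 CPM without estrogen, from 0.344 ± 0.174 and 0.0706 ± 0.0308 CPM in WT.

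Dnah6 and Dnah3 completed the abundant inner arm chains. Dnah6 went from 0.0255, 0 and 0.0232 CPM in WT to 49.1, 130.0 and 72.6 CPM in KO without estrogen, and from 0.0206, 0.0726 and 0.0676 to 37.8, 97.1 and 61.8 CPM with it. The KO libraries lay far above WT in both treatments, with replicate 2 the highest. Dnah3 rose 489-fold and 371-fold on the ratio of mean CPM, to 61.3 ± 19 and 55.1 ± 21.1 CPM. Reads that cover Dnah3 include a stretch where its exons overlap Lyrm1 on the opposite strand (10.5% of its exon bases in GENCODE M21), and the counting was not strand-aware.

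The 3 Dnah7 copies, all on chromosome 1, reached lower levels: 17.1 ± 4.42 CPM for Dnah7b, 8.32 ± 2.75 CPM for Dnah7c and 1.55 ± 0.414 CPM for Dnah7a in KO without estrogen. Between 10.4% and 13.3% of all 150-base windows of each transcript occur unchanged in another copy, and reads aligned to several places were not counted, so the split between the copies is uncertain. Without the 3 copies, 32 of 34 tested members rose without estrogen and 33 with it.

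Dnah14 was the inner arm chain that did not rise in both comparisons. It had 12, 2 and 1 reads in the WT libraries without estrogen, which is 0.153, 0.0202 and 0.0116 CPM, and 0.07197, 0.0242 and 0.0338 CPM in WT with estrogen. In KO it stood at 0.108, 0.183 and 0.203 CPM without and 0.155, 0.216 and 0.133 CPM with estrogen, so WT replicate 1 without estrogen overlapped the KO libraries. Its log2 fold change was 1.46 ± 0.735 without estrogen (edgeR, adjusted p = 0.0943) and 1.90 ± 0.745 with it (adjusted p = 0.0394). Without that WT library the first value was 3.25 (adjusted p = 0.00207), and the call with estrogen was lost under 8 of the other settings, with adjusted p between 0.0517 and 0.118.

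All 5 intermediate and light chains rose in both comparisons, by amounts that differed greatly. Dnal1 and Dnal4 met the count minimum in WT, Dnaic1 and Dnaic2 were under it in every WT library, and Dnali1 lay in between. Among all genes that met it, 27.9% rose in both, against 89.6% of those under it in every WT library. The calls of Dnaic1 and Dnaic2 are therefore not read as a result. Dnali1, the light-intermediate chain of inner arms, stood at 0.178, 0.0607 and 0.0927 CPM in WT without estrogen and 0.103, 0.145 and 0.0901 CPM in WT with it. In KO it reached 55.7, 92.97 and 66.5 CPM without and 45.5, 71.6 and 51.96 CPM with estrogen, and no library of one genotype overlapped the other. The log2 fold changes of Dnali1 were 9.37 ± 0.363 and 8.96 ± 0.358 (edgeR, adjusted p = 6.11e-09 and 8.84e-09). Dnaic1, an intermediate chain of the outer arm, had 0 WT reads without estrogen and 2 with it, against 26.4 ± 8.62 and 20.2 ± 5.51 CPM in KO. That is at least 2331-fold higher without estrogen. With estrogen the ratio of CPM pooled over each group was 2701, with an exact counting interval of 747 to 22304. Dnaic2, the other intermediate chain, reached 67.6 ± 12.8 and 53.3 ± 9.27 CPM from 2 and 12 WT reads.

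The light chains Dnal1 and Dnal4 were already present in WT. Dnal1, which binds an outer arm heavy chain, rose from 10.4 ± 1.44 to 53.7 ± 9.58 CPM without estrogen and from 9.101 ± 1.03 to 44.6 ± 8.28 CPM with it. Dnal4, a light chain related to those of cytoplasmic dynein, had the highest WT level per kb of transcript of all members, 23.02 ± 0.747 CPM per kb without estrogen. It stood at 24.1, 22.8 and 22.8 CPM in WT and 30.7, 35.8 and 31.9 CPM in KO without estrogen, and at 23.1, 25.9 and 26.2 and 29.5, 30.9 and 27.6 CPM with it. The genotypes did not overlap, but the change was small, 0.50 ± 0.0812 on the log2 scale without estrogen (edgeR, adjusted p = 0.000211) and 0.22 ± 0.08096 with it (adjusted p = 0.0272). The call with estrogen was lost without WT replicate 1 (adjusted p = 0.109), KO replicate 1 (0.0573) or KO replicate 2 (0.0912) of the estrogen groups, and in the fit of only the groups compared (log2 fold change 0.23, edgeR adjusted p = 0.0587).

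All 4 docking genes rose in both comparisons, 3 that met the count minimum in WT and Armc4, which was under it in every WT library. The shares of all genes that rose in both were 27.9% for the first kind and 89.6% for the second, so nothing is read from the call of Armc4. Ttc25, a TPR-repeat docking protein, stood at 4.87, 4.98 and 5.42 CPM in WT without estrogen and 5.26, 5.46 and 4.91 CPM in WT with it. It reached 58.8, 93.6 and 74.7 CPM in KO without and 46.5, 78.5 and 59.4 CPM in KO with estrogen, above every WT library. The log2 fold changes of Ttc25 were 3.89 ± 0.213 and 3.56 ± 0.2095 (edgeR, adjusted p = 5e-08 and 9.79e-08). Ccdc114, a coiled-coil docking subunit, began at a like WT level of 4.601 ± 0.2195 CPM and rose 8.35-fold and 8.34-fold. Its partner Ccdc151 began at 0.392 ± 0.0436 CPM and rose 76.7-fold and 56.9-fold. Armc4, which outer arm docking requires, had 6 and 4 reads over the WT groups and reached 26.5 ± 7.304 and 20.8 ± 4.43 CPM.

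The assembly factors were split between those that WT organoids already made and those they hardly made. All 10 that were tested rose in both comparisons, with median log2 fold changes of 3.66 and 3.33, and Dnaaf6 had too few reads to test. Of these 10, 8 met the count minimum in WT, where 27.9% of all genes rose in both. Dnaaf6b and Lrrc6 were under it in every WT library, where 89.6% of genes rose, so nothing is read from their calls. Both also enter the medians. Dnaaf5, a HEAT-repeat factor, was the most abundant: 46.3, 36.5 and 43.5 CPM in WT and 65.1, 84.1 and 70.8 CPM in KO without estrogen. With estrogen it stood at 38.4, 45.3 and 36.9 CPM in WT and 58.4, 73.5 and 63.4 CPM in KO. These groups did not overlap, with log2 fold changes of 0.80 ± 0.129 and 0.70 ± 0.129 (edgeR, adjusted p = 0.000189 and 0.000556). Dnaaf2 (kintoun, a PIH-domain factor that works with HSP90) and Dnaaf3 also had WT levels above 10 CPM, and rose 1.66-fold and 3.19-fold without estrogen and 1.51-fold and 2.68-fold with it. The counts of Dnaaf2 are uncertain, since its exons overlap 9330151L19Rik on the opposite strand (32.7% of their bases in GENCODE M21) and Gm49383 and Gm49384 on the same strand (22.3% and 20.6%). Spag1, which binds chaperones through its TPR repeats, rose 3.09-fold and 2.71-fold.

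At the other end, Lrrc6 had 0 WT reads without estrogen and 2 with it, and reached 24.01 ± 7.06 and 19.7 ± 5.39 CPM in KO. Its binding partner Zmynd10 rose from 0.6999 ± 0.0897 to 42.7 ± 9.54 CPM without estrogen, 61.1-fold, and 45.6-fold with it. No read of Dnaaf6b, a further PIH-domain factor, was counted in WT (0 in 6 libraries), and its KO level was higher by at least 393-fold without and 294-fold with estrogen. Dnaaf1, Dnaaf4 and Ccdc103 rose 134-fold, 12.04-fold and 13.2-fold without estrogen. Part of the exons of Dnaaf1 (20.7%) overlap Taf1c on the opposite strand, and 59.2% of those of Dnaaf4 overlap the gene Gm44503 on the same strand in GENCODE M21, so their counts are uncertain. In all, 22 of the 38 members overlap exons of another gene there, 12 of them a protein-coding gene.

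The 3 subunits of the nexin-dynein regulatory complex rose in both comparisons, Drc1 and Drc3 with WT counts over the minimum and Drc7 under it in every WT library. Genes of the first kind rose in both in 27.9% of cases and genes of the second in 89.6%, so nothing is read from the call of Drc7. Drc3 stood at 9.53, 9.76 and 9.11 CPM in WT without estrogen and 8.52, 11.4 and 9.69 CPM in WT with it, and reached 64.2, 99.7 and 73.2 and 52.8, 77.5 and 57.1 CPM in KO without and with estrogen. The log2 fold changes of Drc3 were 3.06 ± 0.195 and 2.66 ± 0.192 (edgeR, adjusted p = 1.53e-07 and 4.51e-07), with all KO libraries above all WT libraries. Drc1, without which the complex is not built, began far lower, at 0.468 ± 0.0769 CPM, and rose 117-fold and 60.4-fold. Drc7 had 0 WT reads without estrogen and 2 with it, and reached 43.2 ± 10.8 and 34.99 ± 8.43 CPM.

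**Figure D2:**
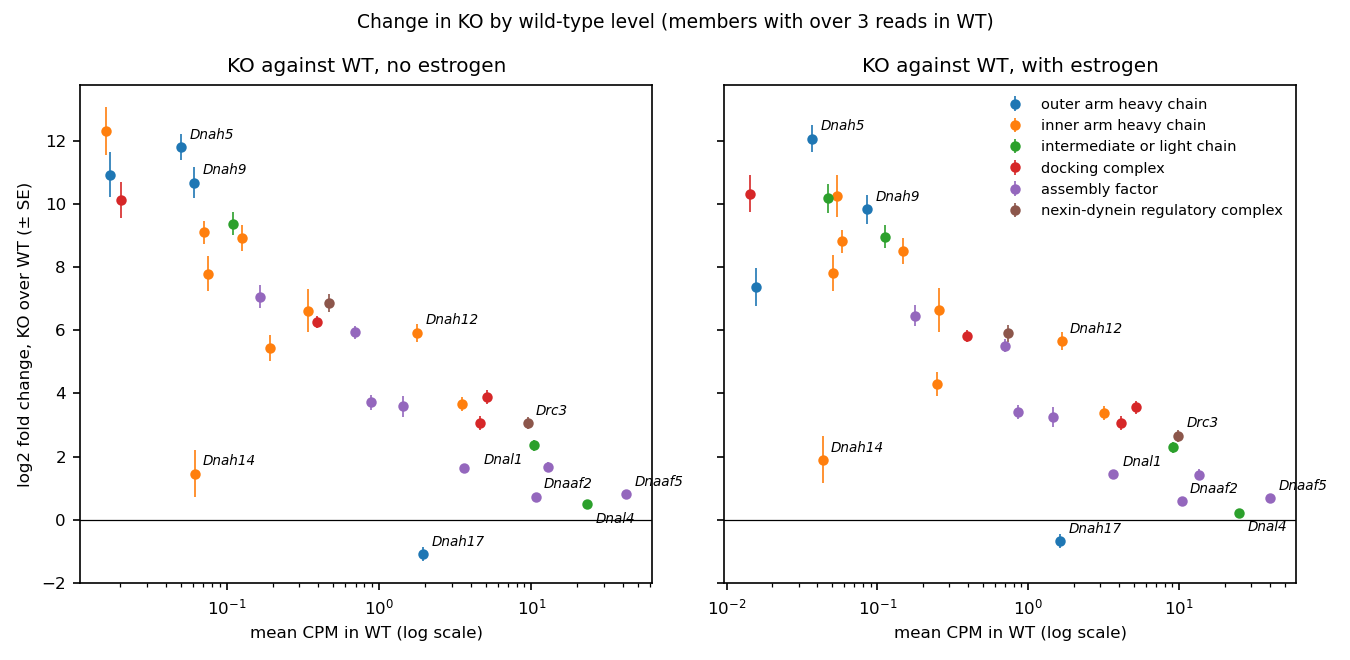
Log2 fold change of KO over WT (± SE, edgeR) against the mean WT level in CPM (log axis), without estrogen (left) and with it (right), coloured by role, for members with over 3 reads in the WT group. The 6 members with the highest WT levels (Dnaaf5, Dnal4, Dnaaf3, Dnaaf2, Dnal1 and Drc3) have log2 fold changes of at most 3.06, the value of Drc3 without estrogen, and Dnah14 and Dnah17 lie below the other members of like WT level.

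The size of the change went with the WT level, as the plot of change by WT level shows: apart from Dnah14, members under 0.5 CPM in WT had larger log2 fold changes than members at or above the WT level of Drc3. The WT level enters both axes, so this is a description and was not tested. Excluding Dnah8, Dnah14, Dnah17, Dnaaf6 and the Dnah7 copies, the KO means without estrogen ran from 4.45 ± 1.37 CPM for Dnaaf6b to 181 ± 45.99 CPM for Dnah5.

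Per kb of transcript, which allows genes of different length to be compared, the heavy chains of KO organoids can be set beside each other. Dnah5 gave the largest share of the summed level of the 15 heavy chains, with lowest, median and highest values over the 6 KO libraries of 20.5%, 23.8% and 24.7%. Dnah12 followed with 15.3%, 16.4% and 18.97%, and its range did not overlap that of Dnah5. Dnah9 gave 12.6%, 13.3% and 13.5% and Dnah6 9.33%, 12.04% and 14.7%, and these ranges overlapped each other. The 5 outer arm chains together gave 38.7%, 41.97% and 43.8% of the total. The level of Dnah9 was 0.537 to 0.644 of that of Dnah5, the level of Dnah11 was 0.178 to 0.214 of it, and the level of Dnaic1 was 0.375 to 0.506 of that of Dnaic2. Dnah14 and Dnah17 gave the smallest shares, with medians of 0.0259% and 0.143%.

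**Figure D3:**
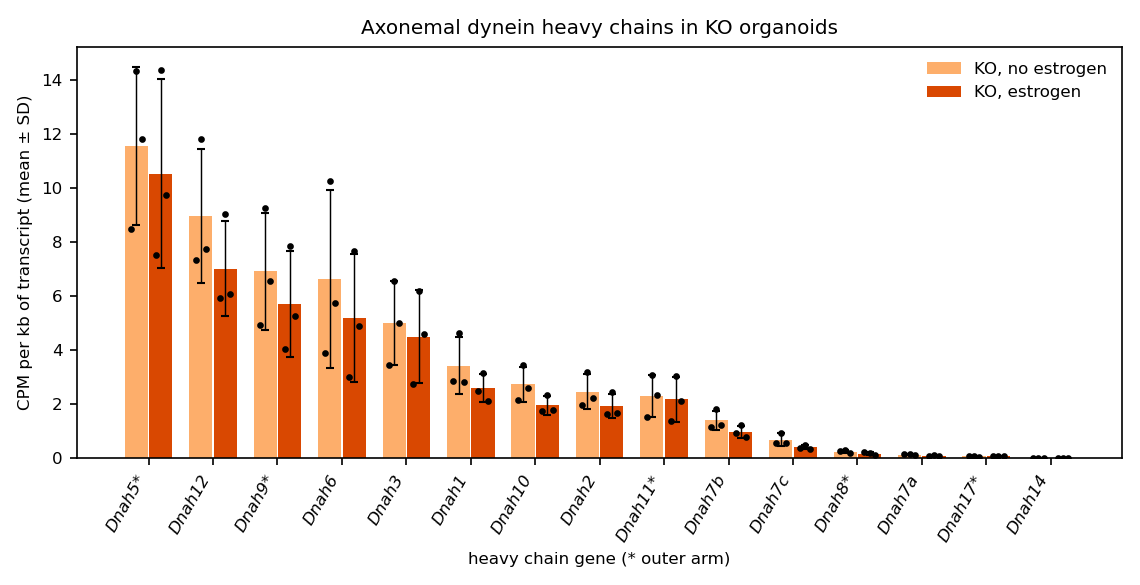
CPM per kb of transcript of the 15 heavy chains in KO organoids, as bars (mean) with SD and the 3 libraries of each group as points, without estrogen (light) and with it (dark); asterisks mark outer arm chains. Dnah5 stands highest at 11.6 ± 2.94 CPM per kb without estrogen, and Dnah8, Dnah7a, Dnah17 and Dnah14 are near 0.

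No member was called as changed by estrogen. In WT, 0 of 37 members were called by edgeR (0% of all genes tested), and 1, Drc1, had an unadjusted p under 0.05, with a log2 fold change of 0.66 ± 0.281 and an adjusted p of 0.906. In KO, 0 of 37 were called (0% of all genes), and 4 had an unadjusted p under 0.05: Dnah7c (-0.77 ± 0.321), Dnah10 (-0.49 ± 0.218), Ccdc151 (-0.43 ± 0.141) and Zmynd10 (-0.41 ± 0.164), each with an adjusted p of 1. DESeq2 called 0 members in either genotype. Of the 37 estimates in KO, 35 lay below 0, while 49.7% of all genes tested lay above 0. Their median log2 fold change was -0.34, against -4.4e-05 over all genes tested. Since the members share 6 libraries, these are not 37 separate observations. The median was -0.12 without KO replicate 2 of the group without estrogen, -0.53 without KO replicate 2 of the estrogen group and -0.21 without KO replicate 1 of the estrogen group. In the fit with the replicate number as a block, 17 members had an unadjusted p under 0.05, all below 0, while 0 were called, as were 0% of all genes. The share of all genes with such an unadjusted p in that fit was not counted, and the members share libraries, so nothing is read from the 17.

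The difference between the genotypes' responses to estrogen was tested as an interaction. It called 0 members and 0% of all genes. The unadjusted p was under 0.05 for 3 members, Dnah8 (-4.17 ± 1.66), Dnal4 (-0.27 ± 0.115) and Drc1 (-0.96 ± 0.3503), each with an adjusted p of 0.974. The value of Dnah8 rests on 0 and 4 WT reads. Foxj1, the master regulator of motile cilia, went in KO from 397 ± 86.3 CPM without to 316 ± 60.02 CPM with estrogen (log2 fold change -0.33 ± 0.203, edgeR adjusted p = 1). In WT it had 4 reads without and 38 with estrogen (log2 fold change 3.12 ± 0.7399, adjusted p = 0.587 by edgeR), and its interaction value was -3.45 ± 0.765 (adjusted p = 0.871).

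Among the KO libraries, replicate 2 stood apart for the dynein genes. Of the 35 members that rose in both comparisons, 35 were highest in replicate 2 without estrogen and 33 with estrogen, and 33 were so in both, against 24.7% of the 13024 tested genes with at least 1 CPM in both KO groups. The level over the group mean had a median of 0.809, 1.28 and 0.92 in replicates 1, 2 and 3 without estrogen and of 0.845, 1.24 and 0.918 with estrogen. Foxj1 showed like values, 0.848, 1.25 and 0.903 without and 0.885, 1.22 and 0.895 with estrogen. Dnah6 had the largest excess, with replicate 2 at 2.14 and 1.95 times the mean of the other replicates without and with estrogen. Dnaaf2 had the smallest, at 1.09 and 0.967 times. Leaving out replicate 2 of the group without estrogen left 35 members higher without estrogen, and leaving out replicate 2 of the estrogen group left 34 higher with estrogen, with Dnah14 and Dnal4 no longer called.

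**Figure D4:**
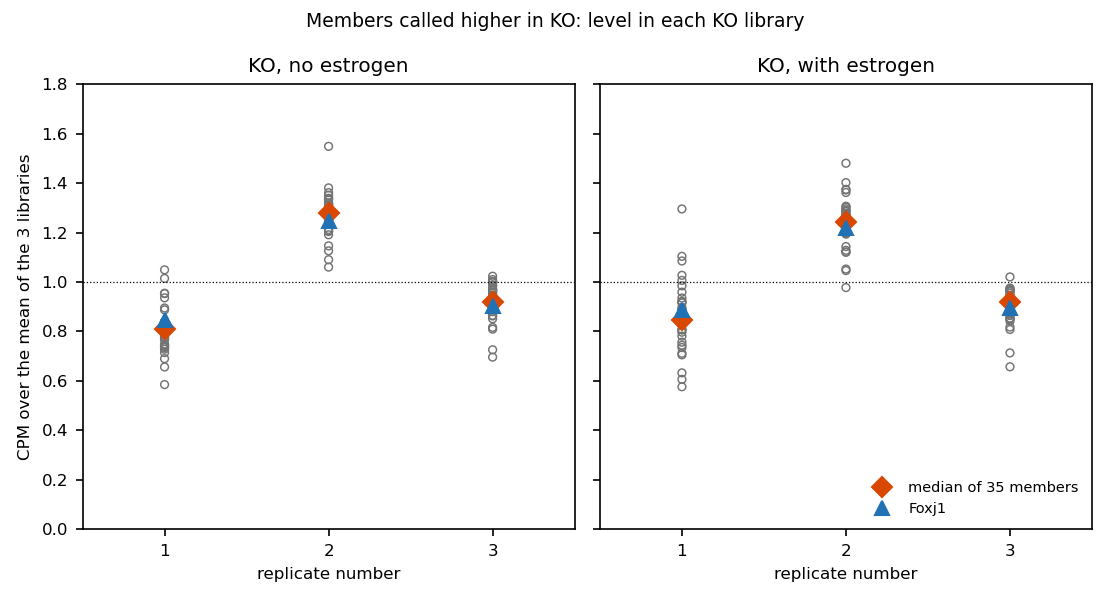
CPM of each of the 35 members that rose, divided by its mean over the 3 libraries of its KO group, by replicate number, without estrogen (left) and with it (right), with the median as a diamond and Foxj1 as a triangle. Replicate 2 lies above 1 for all 35 members without estrogen and down to 0.978 with it, and Foxj1 lies near the median.

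Most other tested genes of the same machinery were also higher in KO. Of 22 other tested genes of axonemal dyneins, their assembly (Cfap298, Cfap300, Ttc12 and Wdr92), docking, the ruler complex and the regulatory complex, 21 rose in both comparisons and 0 fell. Their median log2 fold changes were 5.66 and 5.46. Of the 15 that met the count minimum in at least 3 WT libraries, 14 rose in both, against 27.9% of such genes. The other 7 were under it in every WT library and all rose, as did 89.6% of genes of that kind, so nothing is read from them. Those 7 also enter the medians, which are therefore given as a description. Dynlrb2, a roadblock light chain of ciliary dyneins, went from 0.00772 ± 0.0134 to 91.8 ± 30.3 CPM without estrogen. Ccdc39, part of the ruler that spaces inner arms, went from 2.24 ± 0.182 to 37.98 ± 7.79 CPM, and Cfap57 and Fbxl13 had log2 fold changes of 7.55 and 7.75 (edgeR, adjusted p = 7.89e-09 and 1.89e-08). Gas8, a core subunit of the regulatory complex, was not called in both: its log2 fold changes were 0.44 (adjusted p = 0.00938) and 0.25 (adjusted p = 0.104), and it was called in both with scaling by library size alone.

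The chaperones that assembly factors work with showed no common direction. Of 12, 6 rose in both comparisons and 4 fell, against 34.1% of all genes called higher in both and 30.8% called lower in both. All 12 met the count minimum in at least 3 WT libraries, where 27.9% of genes were called higher in both. The counts are therefore given as a description. Ruvbl1 and Ruvbl2, the ATPases of the R2TP co-chaperone, went from 20.5 ± 1.07 to 58.96 ± 5.81 CPM and from 58.5 ± 0.971 to 114 ± 5.62 CPM without estrogen. Hsp90aa1, the inducible HSP90, went from 363 ± 37.4 to 1524 ± 229.7 CPM. Hspa4, Fkbp8 and Hspa8 were among those that fell, with log2 fold changes of -1.19, -0.75 and -0.24 without estrogen. With scaling by library size alone 7 rose and 2 fell, and Hspa8 was no longer called (-0.01 without estrogen, edgeR adjusted p = 0.908). The count that fell was also 2 with another scaling (RLE), without the count filter, in the fits of only the groups compared and in some fits that left out a library.

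The dyneins of intracellular transport had smaller median changes. All of their tested genes met the count minimum in WT, whereas 13 of the 37 tested members were under it in every WT library. The medians of these sets are therefore not alike. The 5 tested subunits of dynein-2, the motor that returns cargo from the ciliary tip, all rose in both comparisons, with median log2 fold changes of 1.74 and 1.68. Dync2h1, its heavy chain, went from 21.3 ± 1.79 to 71.1 ± 12.5 CPM without estrogen. Of 17 tested genes of cytoplasmic dynein-1, the motor for transport in all cells, 7 rose, 2 fell (Dynll2 and Dync1li1) and 8 were not called in both. Its heavy chain Dync1h1 had log2 fold changes of -0.24 (edgeR, adjusted p = 0.0408) and -0.08 (adjusted p = 0.468). Of 12 dynactin genes, which serve cytoplasmic dynein as adaptor, 1 rose (Actr1a) and 4 fell, among them Actr1b, Dctn1 and Dctn5. Over all genes, 34.1% were called higher in both comparisons and 30.8% lower in both. Of genes that met the count minimum in at least 3 WT libraries, as all of these dynein and dynactin genes did, 27.9% were higher in both. The counts for dynein-1 and dynactin are therefore given as a description. Scaling by library size alone, which raised the median log2 fold change of all genes from 0.04 to 0.27 without estrogen, gave 10 higher and 0 lower for dynein-1 and 5 higher and 3 lower for dynactin. It left 5 of 5 higher for dynein-2.

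Markers of multiciliated cells were also higher in KO. All 15 rose in both comparisons, against 34.1% of all genes called higher in both and 30.8% called lower in both. Of the 15, 8 met the count minimum in at least 3 WT libraries, where 27.9% of genes rose in both. Another 6 were under it in every WT library, where 89.6% of genes rose, so nothing is read from those 6. The remaining 1 lay in between. Their summed level lay between 18.8 and 28.7 CPM in the WT libraries and between 853 and 1494 CPM in the KO libraries, and Gmnc, an inducer of the multiciliated fate, had 0 reads in WT. Foxj1 went from 0.0145 ± 0.0126 to 397 ± 86.3 CPM without estrogen, and its WT level was not above 0.194 CPM in any library. Basal cell markers rose too, 3 of 3, from a sum of 1.74 to 3.55 CPM in WT to 3999.95 to 9552 CPM in KO. Of these, 2 met the count minimum in WT, and Krt14 was under it in every WT library. Oviduct secretory markers were split, with 2 of the 4 tested higher (Oit1 and Fxyd4) and 2 lower (Ovgp1 and Pax8). Stromal markers summed to 2.41 to 5.07 CPM in WT and 1.29 to 4.23 CPM in KO, with 0 called in both comparisons, and immune markers to 206 to 454 and 100.4 to 187 CPM, nearly all of it Cd68, with 2 of 3 tested lower. Endothelial markers summed to 0.728 to 2.86 CPM in WT and 0.654 to 1.05 CPM in KO (1 of 2 tested higher, 1 lower), and mesothelial markers to 24.7 to 87 and 26.9 to 79.7 CPM (1 of 2 higher). Germ cell markers, looked at because spermatids also make axonemal dyneins, summed to 2.6 to 4.65 CPM in WT and 0.192 to 0.532 CPM in KO, with the spermatid gene Tnp1 at 0 in all libraries and Ddx4, the 1 tested, lower. The part of multiciliated or basal cells in the changes of the dynein genes was not tested.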

How the data were processed

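Each of the 12 libraries has a deposited table of raw counts per gene. These were made by the authors with featureCounts 2.0.0 over RefSeq exons at default settings (unstranded, each mate counted, reads with several alignments or genes left out), per the file headers. The submitters' processing notes list STAR 2.7.10b, FastQC 0.11.7, Trim Galore 0.6.6, featureCounts 2.0.3 and the build GRCm39. The kit was a TruSeq mRNA kit, per the labels' protocols, and 75654191 to 108665407 reads were counted per library.

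Genes that passed filterByExpr (at least 10 reads as minimum count, 15 as minimum total) were tested in R 4.3.3 with edgeR 4.0.16 (TMM, robust quasi-likelihood, 1 mean per group, all 4 groups in 1 fit), with Benjamini-Hochberg adjustment over all 16465 genes and a threshold of 0.05. The fit was also run on simulated data, in which only genes present in WT were changed, by folds far smaller than those of most members. That run does not cover members near 0 in WT or libraries that deviate together. Standard errors were taken from the quasi-likelihood F. Groups with 0 reads were set at a floor of 3 reads over the group, and those with 1 to 3 reads were given an exact 95% interval; both reflect counting error alone. Levels per kb use the GENCODE M21 transcript with the longest coding part, and promoters are RefSeq's (GRCm38.p6). These annotations are of another build than the counts and served for lengths, overlaps and letters only.

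The members and gene lists were chosen with earlier results of these data known. Values in every library are given for the most abundant member of each role, for members not called in the common direction and for members with high WT levels; further members were chosen as examples after their values were seen. From each other list, up to 4 genes with the smallest p and up to 3 that went against most of the list are named.

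Replicate numbers come from the sample titles. Deviations from the group means correlated between same-numbered KO libraries (0.568, 0.501 and 0.409), so the numbers were taken to pair the KO libraries. Same-numbered libraries correlated negatively within WT (-0.164, -0.157 and -0.39) and little across genotypes (-0.00892 to 0.0531). WT libraries did correlate across treatments under other numbers. Replicates 1, 2 and 3 without estrogen went with replicates 2, 3 and 1 with it (0.273, 0.46 and 0.396). What a number shares is not given in the labels, and the block used the numbers of the titles in both genotypes. The alternatives were other scalings, DESeq2 1.42.0, other count filters, fits of the compared groups alone, the replicate number as a block, and leaving out each library or the Dnah7 copies.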

Additional observations from a re-analysis of the deposited data

How the results depend on the processing

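Of 1404 values of single members under the alternatives, 1389 kept their direction and their side of the threshold, 14 lost the call, 1 gained it and 0 reversed. The changes concern Dnah14, Dnah17 and Dnal4. The count of members lower in KO with estrogen, and lower in both comparisons, was 1 and became 0 with library size alone, where Dnah17 stood at -0.48 on the log2 scale (adjusted p = 0.0641 by edgeR); leaving out single libraries gave 0 to 1, with 0 without WT replicate 2 of the estrogen group. The counts of members higher stayed within 1.5 times of 35 and 36. Library size alone raised the median log2 fold change of all genes from 0.039 to 0.265 without and from 0.0204 to 0.205 with estrogen, and the share of calls that were higher from 52.5% to 65.5% and from 51.9% to 63.1%; the cause was not tested. With the replicate block, 35 members were higher without and 36 with estrogen, 1 was lower in each, and 0 were called by estrogen or the interaction. For the genotype comparisons the block joined WT and KO libraries of one number, which hardly correlated. Within WT it joined libraries that correlated negatively. It therefore cannot show what pairing would do to the genotype calls or in WT. Across all genes, DESeq2 called 59 genes higher and 4 lower by estrogen in WT, 19 and 1 in KO, and 6 and 19 by the interaction, where edgeR called 0; 0 members were among them. The 3 libraries per group and the few WT reads limit the precision for Dnah14 and Dnaaf6.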
